A study of Mus musculus with 8 samples.

Results

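The 10 genes described here encode the cyclins, the cyclin-dependent kinases (CDKs) and the retinoblastoma (RB) proteins of the G1 phase of the cell cycle. They are *Ccnd1*, *Ccnd2*, *Ccnd3*, *Ccne1*, *Ccne2*, *Cdk2*, *Cdk4*, *Cdk6*, *Rb1* and *Rbl2*. They were chosen by name among the 55487 gene IDs of the count table, and all 10 were among the 20610 genes with at least 10 reads over the 8 samples, which were the genes tested. D-type cyclins bind CDK4 and CDK6 early in G1 and start the phosphorylation of the RB proteins, and E-type cyclins with CDK2 complete it, which frees the E2F factors that switch on the genes of S phase. CDK inhibitors of the INK4 family block CDK4 and CDK6, and those of the CIP/KIP family bind cyclin and CDK complexes. Hematopoietic stem cells (HSCs) are mostly resting in the adult and divide in the fetal liver, and low CDK6 and high p57 are known from the most quiescent HSCs.

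The study deleted *Nfkbia*, which encodes IκBα, the inhibitor of NF-κB, and asked what is altered in stem cells of the fetal liver. Each sample was 500 LT-HSCs, the long-term repopulating stem cells, sorted from fetal liver at E14.5 as LSK CD48-CD150+ cells and measured by bulk RNA-seq. There were 3 IκBα WT, 3 HET and 2 KO samples, where HET embryos carry 1 copy of the targeted knockout allele *Nfkbia* tm1Bal and KO embryos carry 2. The embryos came from matings of HET parents, which could also carry the *Gfi1:tomato* allele, and the labels do not say which embryos had it. The knockout is not restricted to a tissue, so the liver around the stem cells has the same genotype. The male samples were WT1, WT2 and HET1, and the other 5, both KO samples among them, were female. The labels give total RNA as the molecule of the 3 male samples and polyA RNA for the 5 female samples, so sex and this label cannot be told apart. With both KO samples female, a comparison that corrects for sex sets KO against WT3, HET2 and HET3. The labels name no litter or sorting day, so p-values measure the spread between these samples.

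Between 17895973 and 21720972 reads were counted on genes per sample, and levels are given as CPM (the share of a library's reads on a gene, scaled by TMM normalization), of which 3 reads are 0.125 to 0.178. *Nfkbia* had 243 to 1621 reads in the 6 WT and HET samples, 1 in KO1 and 0 in KO2, and the Y-linked genes matched the labelled sex. The sorted identity was less uniform. The summed level of 8 HSC marker genes (*Kit*, *Ly6a*, *Slamf1*, *Procr*, *Hlf*, *Mecom*, *Cd34* and *Ptprc*) was 1618 CPM in WT1, 1761 in WT2, 1512 in KO1 and 1014 in KO2, against 660.4 in HET1, 526.2 in HET2, 273.5 in WT3 and 204.5 in HET3. *Ly6a*, which encodes the sorting antigen SCA1, ranged from no read in HET3 to 77.2 CPM in WT2. The summed level of 6 erythroid genes was 532.6 to 1047 CPM in WT1, WT2 and KO1 and 2063 to 8364 CPM in the other 5 samples, and that of 4 hepatocyte genes was 6.26 to 8.89 CPM in WT1, WT2 and KO1 and 77.5 to 1128 CPM in the others. The libraries labelled WT3 and HET3, with the lowest HSC and the highest hepatocyte sums, thus went against the label LT-HSC. Of the HSC markers *Kit* did not follow, at 147.6 and 170.0 CPM in WT3 and HET3 against 170.1 in WT1 and 135.0 in HET1. Each of the other HSC markers was lowest in these libraries, while the erythroid sum was higher in HET1 and HET2. The results for KO are given with and without both WT3 and HET3, and those between WT and HET or male and female samples also without each. With sex in the model, the KO fit without both sets KO against HET2 alone, the only female reference sample left. Values from that fit rest on this single library, which had 526.2 CPM of HSC markers and 3250 CPM of erythroid markers. Megakaryocyte genes summed to 23.1 to 1257 CPM, granulocyte and macrophage genes to 115.7 to 809.1, endothelial genes to 1.84 to 14.8, lymphoid genes to at most 1.72, and *Cd48*, the antigen excluded by the sort, was at 45.8 to 89.1 CPM. In such bulk samples, fewer cells of a type and less RNA per cell cannot be told apart.

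The genes lie on 8 chromosomes of GRCm38, in the GENCODE M21 annotation counted from 1. The D-type cyclin genes are *Ccnd1* (ENSMUSG00000070348, chr7:144929931-144939925), *Ccnd2* (ENSMUSG00000000184, chr6:127125162-127152193) and *Ccnd3* (ENSMUSG00000034165, chr17:47505051-47599691). Their kinases are *Cdk4* (ENSMUSG00000006728, chr10:127063534-127067920) and *Cdk6* (ENSMUSG00000040274, chr5:3341485-3531008). The E-type cyclins are *Ccne1* (ENSMUSG00000002068, chr7:38097984-38107534) and *Ccne2* (ENSMUSG00000028212, chr4:11191351-11204779), and their kinase is *Cdk2* (ENSMUSG00000025358, chr10:128697939-128705031). The pocket proteins are *Rb1* (ENSMUSG00000022105, chr14:73183673-73325822) and *Rbl2* (ENSMUSG00000031666, chr8:91070057-91123844). All but *Ccne1* overlap another annotated gene (9 of 10), and reads in the shared stretches are uncertain because the strand setting of the counting is not named.

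The promoters of the 3 kinases are shown because the kinases gave 3 different patterns: *Cdk6* differed most between samples, *Cdk4* was the most abundant and among the steadiest, and *Cdk2* was the gene whose KO samples stood above all others. The sequences are RefSeq windows of GRCm38.p6, of which the 250 bases before the annotated start are printed 5′ to 3′ on the gene's strand. They are chr5:3343643-3343892 on the plus strand for *Cdk6*, chr10:127063285-127063534 on the plus strand for *Cdk4* and chr10:128705052-128705301 on the minus strand for *Cdk2*. Capitals mark the E-box CACGTG, the letters bound by MYC and related factors, and the E2F site, searched as TTTGGCGC, TTTGCCGC, TTTCGCGC and TTTCCCGC.
Cdk6: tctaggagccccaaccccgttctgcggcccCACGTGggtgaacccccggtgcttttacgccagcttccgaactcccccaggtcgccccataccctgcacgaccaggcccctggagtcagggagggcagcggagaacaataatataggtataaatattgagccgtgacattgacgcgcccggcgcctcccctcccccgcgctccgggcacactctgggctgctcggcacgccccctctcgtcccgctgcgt
Cdk4: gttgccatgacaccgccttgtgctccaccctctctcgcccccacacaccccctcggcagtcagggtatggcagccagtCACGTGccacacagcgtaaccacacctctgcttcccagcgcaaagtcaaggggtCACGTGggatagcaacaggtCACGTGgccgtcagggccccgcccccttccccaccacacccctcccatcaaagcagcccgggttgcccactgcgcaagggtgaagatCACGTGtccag
Cdk2: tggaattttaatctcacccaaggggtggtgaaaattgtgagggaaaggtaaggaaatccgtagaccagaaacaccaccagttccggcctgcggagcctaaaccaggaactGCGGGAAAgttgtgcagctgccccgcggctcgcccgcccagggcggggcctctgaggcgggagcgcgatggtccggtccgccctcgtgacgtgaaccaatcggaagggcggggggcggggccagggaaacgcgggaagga
Both strands of the whole windows, which run from 250 bases before to 50 after the start, were searched. The *Cdk4* window held 4 E-boxes, beginning 172, 118, 98 and 11 bases before the start, and the *Cdk6* window held 1, 220 bases before it. The *Cdk2* window held 1 E2F site, TTTCCCGC on the opposite strand, 140 bases before its start. Of all 32851 windows, 7.15% held an E-box and 2.26% an E2F site of these letters, and the 2 motifs shared no bases in the printed stretches. Windows were held for 6 of the 10 genes (7 windows, with 2 for *Ccnd3*). Outside the kinases, none had an E-box or an E2F site, and *Rbl2* had TTTGAA, the cell cycle homology region bound by the MuvB complexes, 201 bases before its start (17.9% of all windows). None of the 7 windows matched the κB consensus of NF-κB, which 8.46% of all windows did. The printed *Cdk6* stretch lies within the annotated gene, whose GENCODE start is further upstream. *Ccnd1*, *Ccnd2*, *Ccne2* and *Rb1* were not analysed here for promoter sequence.

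Per length, *Cdk4* was by far the most abundant of the 10 genes, and the pocket protein genes were the least. Over the 6 WT and HET samples the level per kilobase of exon was 401.3 ± 59.1 CPM per kb for *Cdk4* and 77.8 ± 42.2 for *Ccne1* (mean ± SD, n = 6). It was 31.8 ± 8.72 for *Ccnd2*, 25.5 ± 3.43 for *Ccnd3*, 24.8 ± 5.47 for *Cdk2* and 23.5 ± 4.96 for *Ccne2*, 4 neighbours whose differences were within their spread. *Cdk6* followed at 11.1 ± 5.64, *Ccnd1* at 8.67 ± 4.82, *Rb1* at 6.09 ± 2.00 and *Rbl2* at 3.63 ± 1.04 CPM per kb, where *Cdk6*, *Ccnd1* and *Rb1* also overlapped. All the levels that follow are CPM without division by length and compare samples, not genes. *Ccne1* and *Cdk6* varied most between the 8 samples, with an SD of log2 CPM of 1.01 and 0.89, larger than that of 87.2% and 84.9% of the 10099 genes with a mean of at least 5 CPM. *Ccnd3* and *Cdk4* varied least, with 0.18 and 0.21, against a median of 0.38 for all these genes.

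**Figure D1:**
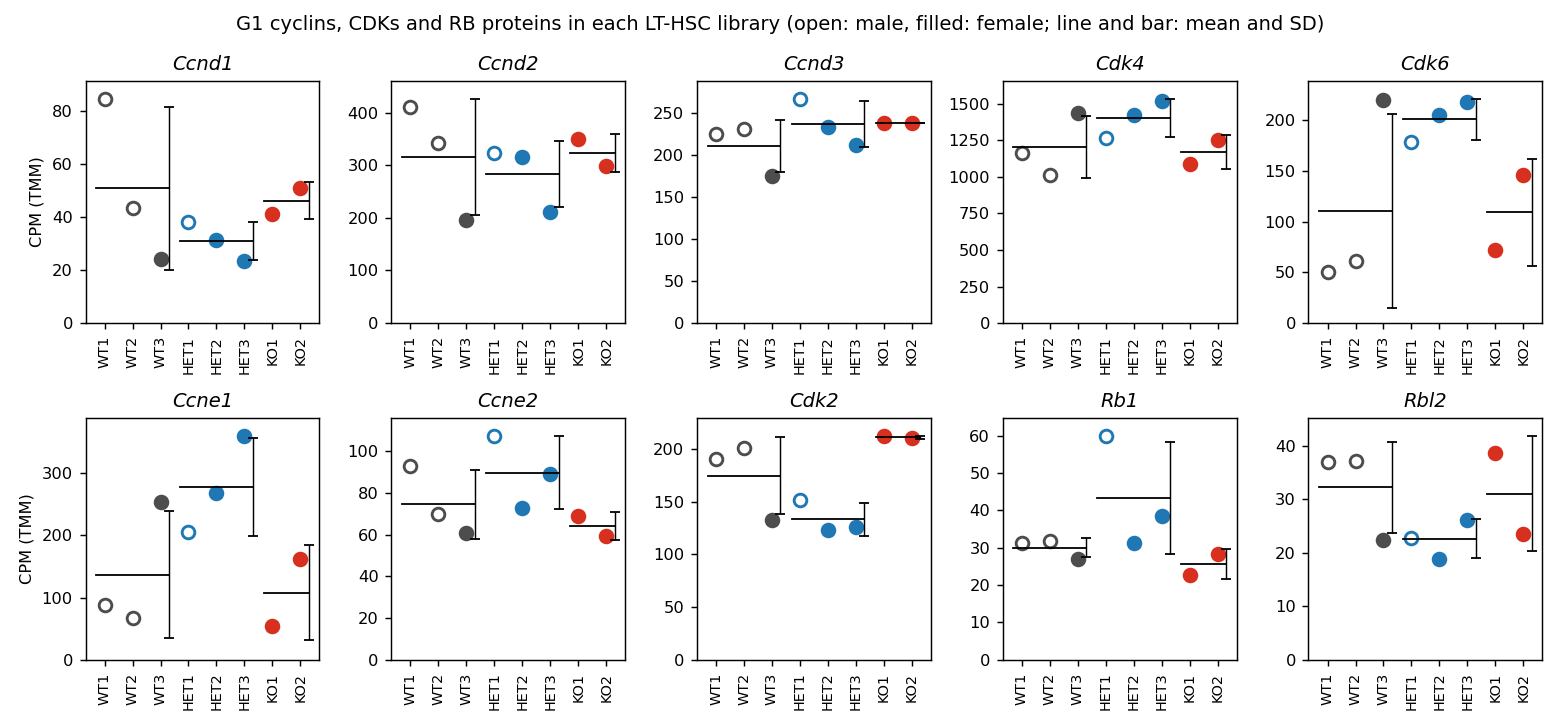
Level of each gene in CPM (TMM normalized, linear axis from 0) in the 8 LT-HSC libraries, with open circles for male and filled circles for female samples, and the mean and SD of each genotype as line and bar. The 2 KO samples of *Cdk2* lie above the 6 others, whereas for *Cdk6* and *Ccne1* KO1 lies with WT1 and WT2, and KO2 lies between these and the other samples.

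To ask whether the G1 machinery differed without IκBα, KO was compared with WT and HET together, with sex in the model. None of the 10 genes passed the threshold of edgeR (adjusted p-value under 0.05 and absolute log2 fold change over 1), and neither did any of the 20610 genes (percent called 0). At an unadjusted p-value under 0.05, 2 of the 10 were higher in KO, *Cdk2* and *Ccnd1*, where 15.7% of all genes were, and 1 was lower, *Ccne1*, where 9.48% were. With the DESeq2 and apeglm procedure of the methods, 1 of the 10 passed, *Ccne1*, which was lower, where 0.597% of all genes were called lower and 6.5% higher. The 10 genes split evenly in sign in edgeR, with 5 higher and 5 lower and a median log2 fold change of -0.00, against 0.13 for all genes.

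Among the D-type cyclins, *Ccnd1* was at 84.4, 43.5 and 24.2 CPM in WT1 to WT3, at 38.1, 31.3 and 23.5 in HET1 to HET3, and at 41.1 and 51.0 in KO1 and KO2. The highest value was that of WT1, and the KO samples lay within the range of WT but above the 3 female WT and HET samples. The log2 fold change was 0.81 ± 0.34 (SE; adjusted p = 0.188, edgeR), and without WT3 and HET3 it was 0.53 ± 0.51 (adjusted p = 0.713, edgeR). When sex was left out it was 0.17 ± 0.46 (adjusted p = 0.978, edgeR). *Ccnd2*, a second D-type cyclin, was at 411.1, 341.5 and 195.7 CPM in WT, 322.4, 316.2 and 210.6 in HET, and 349 and 298 in KO. WT3 and HET3 were its 2 lowest samples, and its log2 fold change went from 0.43 ± 0.23 (adjusted p = 0.271, edgeR) to 0.00 ± 0.28 (adjusted p = 1, edgeR) without them. *Ccnd3*, the D-type cyclin of lymphoid and erythroid cells, was at 225.2, 230.8 and 174.5 CPM in WT, 266.5, 233.1 and 212 in HET, and both at 238 in KO. Its KO samples lay inside the range of the others, at a log2 fold change of 0.20 ± 0.17 (adjusted p = 0.453, edgeR) with all samples and 0.00 ± 0.25 (adjusted p = 1, edgeR) without WT3 and HET3.

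*Cdk6*, the partner of the D-type cyclins that HSCs hold low at rest, separated the samples into high and low ones, but not by genotype. It was at 50.4, 60.9 and 220.2 CPM in WT1 to WT3, at 178.6, 205.2 and 218.0 in HET1 to HET3, and at 71.9 and 145.9 in KO1 and KO2. The lowest samples were WT1 and WT2, so that both KO samples lay above them and below WT3 and all HET samples. The mean of KO, 108.9 ± 52.3 CPM (SD, n = 2), was close to that of WT, 110.5 ± 95.2 CPM (SD, n = 3), and the mean of HET was 200.6 ± 20.1 CPM (SD, n = 3). The WT mean joins 2 low male samples and 1 high female one, while both KO samples are female. With WT alone as the reference and sex in the model the log2 fold change was -1.01 ± 0.41 (adjusted p = 0.202, edgeR). That fit sets KO against WT3, the only female WT sample and a library that went against the label LT-HSC. The log2 fold change of KO was -0.98 ± 0.54 (adjusted p = 0.277, edgeR), -0.94 ± 0.78 (adjusted p = 0.683, edgeR) without WT3 and HET3, and -0.51 ± 0.62 (adjusted p = 0.978, edgeR) when sex was left out. It was -1.58 with KO1 alone and -0.56 with KO2 alone, where the lone KO sample is assumed to vary like the other groups. *Cdk4*, the other kinase of the D-type cyclins, was at 1166, 1012 and 1435 CPM in WT, 1266, 1424 and 1521 in HET, and 1090 and 1255 in KO. KO overlapped WT, and the log2 fold change was -0.32 ± 0.17 (adjusted p = 0.267, edgeR), and -0.31 ± 0.30 (adjusted p = 0.714, edgeR) without WT3 and HET3.

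The E-type cyclins differed from each other. *Ccne1*, which with CDK2 drives cells into S phase, was at 88.1, 67.6 and 254 CPM in WT1 to WT3, at 204.8, 268.0 and 360.2 in HET1 to HET3, and at 54.4 and 161.7 in KO1 and KO2. KO1 was its lowest sample and HET3 its highest, 6.62-fold apart, and KO2 lay between the male WT samples and the rest. The log2 fold change was -1.44 ± 0.57 (adjusted p = 0.173, edgeR), -1.48 ± 0.56 (adjusted p = 0.0493, DESeq2) and -1.34 ± 0.78 (adjusted p = 0.671, edgeR) without WT3 and HET3. It was -2.44 with KO1 alone and -0.86 with KO2 alone. *Ccne2*, the second E-type cyclin, was at 93.0, 69.8 and 60.9 CPM in WT, 107.5, 72.7 and 89.3 in HET, and 68.8 and 59.3 in KO. KO2 was its lowest sample, the groups overlapped, and the log2 fold change was -0.21 ± 0.23 (adjusted p = 0.583, edgeR) and -0.21 ± 0.32 (adjusted p = 0.81, edgeR) without WT3 and HET3. The sign of *Ccne2* turned to 0.08 with scaling by library size only, which moved the median of all genes by 0.28.

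*Cdk2*, the kinase of the E-type cyclins, was the only one of the 10 genes whose KO samples lay above all 6 others. It was at 190.8, 200.7 and 132.6 CPM in WT, 151.1, 122.6 and 125.8 in HET, and 212.1 and 210.1 in KO. The 2 KO samples were nearly equal, WT1 and WT2 came next, and WT3, HET2 and HET3 were lowest with HET1 above them. The log2 fold change was 0.73 ± 0.16 (unadjusted p = 0.00142, adjusted p = 0.148, edgeR), 0.70 ± 0.20 (adjusted p = 0.011, DESeq2), which is under the fold threshold, and 0.75 ± 0.28 (adjusted p = 0.671, edgeR) without WT3 and HET3. When sex was left out of the model it was 0.46 ± 0.22 (adjusted p = 0.978, edgeR). In the exact two-sided permutation test of log2 CPM, 2 against 6, p was 0.0714, the smallest value this design allows. Of all genes, 3.05% had both KO samples above the 6 others and 1.79% below, so 1 of 10 above and 0 of 10 below for these genes stood against these shares.

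Of the pocket proteins, *Rb1*, which holds E2F factors in G1, was at 31.4, 31.7 and 27.1 CPM in WT, 60.0, 31.3 and 38.4 in HET, and 22.8 and 28.4 in KO. HET1 was the highest, KO1 the lowest, and the log2 fold change was -0.33 ± 0.33 (adjusted p = 0.535, edgeR) and -0.32 ± 0.47 (adjusted p = 0.807, edgeR) without WT3 and HET3. *Rbl2*, which encodes p130, the pocket protein of resting cells, was at 37.0, 37.3 and 22.5 CPM in WT, 22.8, 18.9 and 26.2 in HET, and 38.8 and 23.5 in KO. WT1, WT2 and KO1 were alike and high and the other 5 samples were lower, and the log2 fold change was 0.47 ± 0.31 (adjusted p = 0.355, edgeR), from 0.06 with KO2 alone to 0.78 with KO1 alone, and 0.69 ± 0.47 (adjusted p = 0.671, edgeR) without WT3 and HET3.

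**Figure D2:**
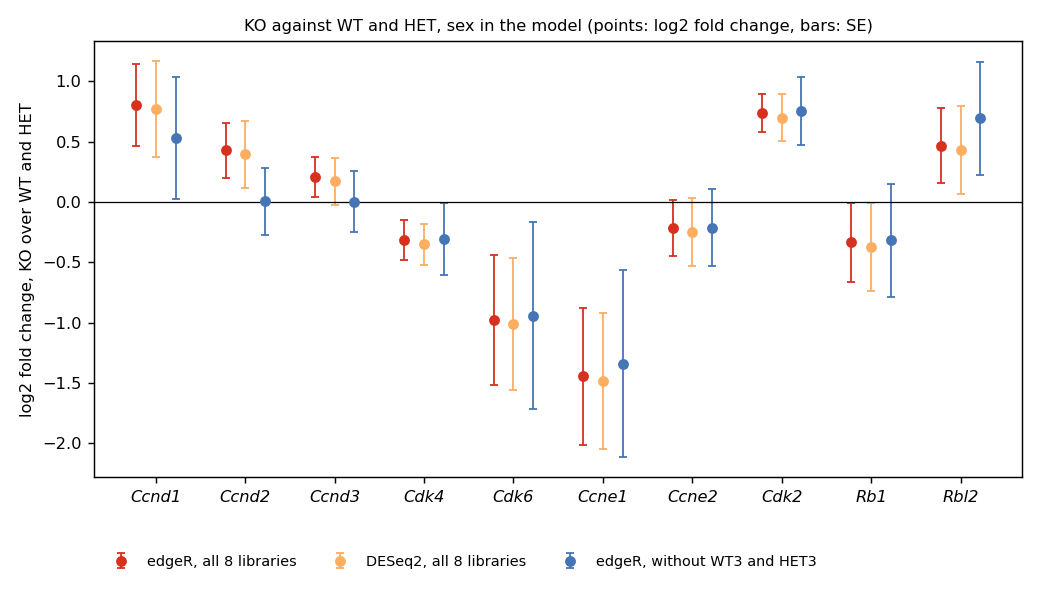
Log2 fold change of KO over WT and HET (points) with its SE (bars) for the 10 genes, from edgeR and DESeq2 on all 8 libraries and from edgeR without WT3 and HET3, all with sex in the model. *Cdk2* was between 0.70 and 0.75 in these 3 fits, which share the KO samples and the sex term, and at 0.46 with sex left out. *Ccnd2* and *Ccnd3* came to about 0 without WT3 and HET3, where HET2 is the only female reference sample.

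Within the female, polyA-labelled samples, more of these genes separated KO from the others, as did many other genes. Both KO samples lay above WT3, HET2 and HET3 for *Ccnd1*, *Ccnd3* and *Cdk2* (3 of 10, against 27.1% of all genes) and below them for *Ccne1*, *Cdk4* and *Cdk6* (3 of 10, against 21.4%). With 2 against 3 samples the exact two-sided permutation p was 0.2 for each, the smallest possible. In edgeR on these 5 samples, the log2 fold change was 0.69 ± 0.12 for *Cdk2* (adjusted p = 0.116), -1.02 ± 0.31 for *Cdk6* (adjusted p = 0.126) and -1.48 ± 0.48 for *Ccne1* (adjusted p = 0.133). In the sex-corrected log2 values deposited by the authors, both KO samples were above the 6 others for *Ccnd3* and *Cdk2* (2 of 10, against 19.3% of all genes) and below for *Ccne1* and *Cdk4* (2 of 10, against 16.5%). *Cdk6* overlapped in that table.

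Several of the 10 genes were high and low in the same samples as some cell type markers. *Cdk6* and *Ccne1* were low in the 3 samples with the highest HSC marker sum (WT1, WT2 and KO1), intermediate in KO2 and high in the 4 others, and the same 3 sets of samples were low, intermediate and high for *Klf1*, the erythroid master regulator, with 113.6, 85.4 and 36.2 CPM in WT1, WT2 and KO1, 518.3 in KO2 and 731.0 to 1227 in the others. *Klf1* was picked after its values were seen, and the globin genes of the erythroid list did not follow these sets, with *Hbb-bt* at 606.8 CPM in WT1 and 303.9 in WT3. *Rbl2* was high in the same 3 samples, and *Cdk2* in these and KO2. In KO against WT and HET, all 8 HSC markers had a positive log2 fold change, with a median of 2.65, and 8 of 8 had an unadjusted p-value under 0.05 but none was called (edgeR). Of all genes, 15.7% were higher at such a p-value in edgeR, and 6.5% were called higher by DESeq2 with apeglm. DESeq2 with apeglm called 3 of the 8, and without WT3 and HET3 the median was 1.52 and 2 had an unadjusted p-value under 0.05 (edgeR). Of the erythroid genes 4 of 6 were negative, with a median of -1.27, and of the hepatocyte genes 4 of 4, with a median of -2.76, none with an unadjusted p-value under 0.05. The 4 megakaryocyte genes were all positive, with a median of 1.99 and 2 unadjusted p-values under 0.05, and DESeq2 with apeglm called 1 of them. The part of these markers in the values of *Cdk6*, *Ccne1* and *Cdk2* was not tested.

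**Figure D3:**
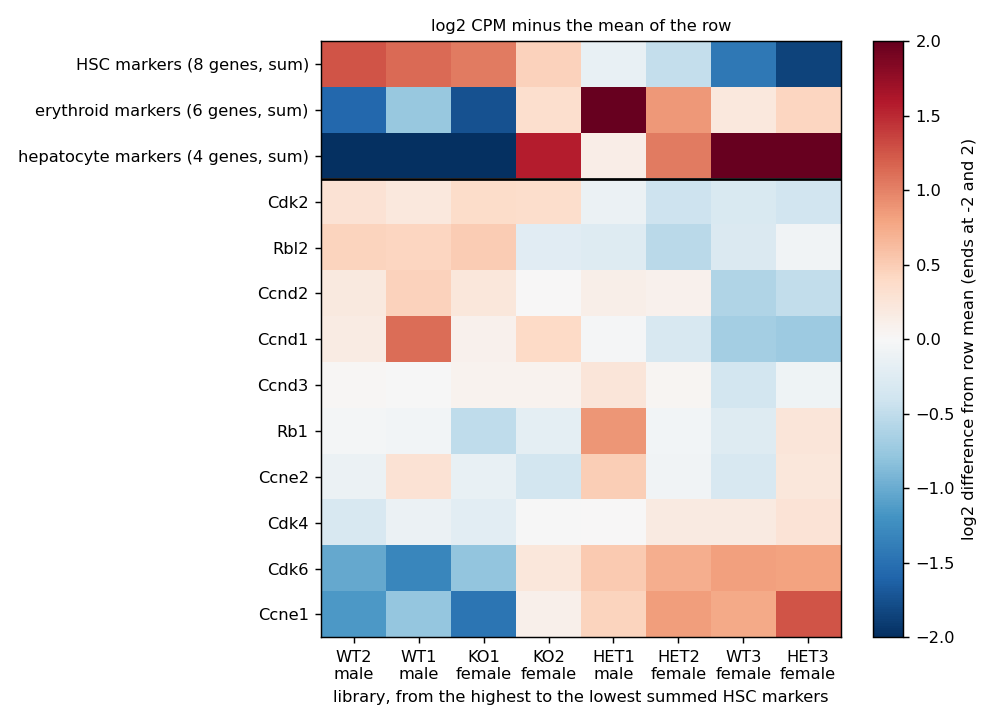
Log2 level minus the mean of its row (colour, blue low, red high, ends of the scale at -2 and 2) of 3 summed marker lists and the 10 genes in the 8 libraries, ordered from the highest to the lowest HSC marker sum. *Cdk6* and *Ccne1* are blue in WT2, WT1 and KO1 and red in the 4 libraries on the right, where *Cdk2* is blue.

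The genes whose centred log2 CPM over the 8 samples was most like that of *Cdk6*, by root mean square difference among 10098 others with a mean of at least 5 CPM, were *Rpl10* (0.083), AC121821.1 (0.118), *Rps12* (0.119), *Hgh1* (0.141) and *Pip4k2c* (0.145). *Hgh1* ranged from 20.6 CPM in WT1 to 106.6 in HET3, and was 25.2 and 56.3 in KO1 and KO2. *Rpl10* and *Rps12* encode ribosomal proteins and have near-identical copies, so their levels of 5.99 to 23.9 and 4.35 to 19.7 CPM, from uniquely mapped reads, are uncertain. Between pairs of the 10 genes, *Cdk6* differed least from *Ccne1* by this measure, at 0.353, and next from *Cdk4*, at 0.668.

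The composition of the D-type cyclins does not depend on the scaling between libraries, and KO did not stand apart from the 6 others in it. Per kilobase of exon, *Ccnd2* gave 43.4 to 50.9% of their summed level, *Ccnd3* 29.4 to 46.9% and *Ccnd1* 9.70 to 20.5%. *Ccnd1* had 20.5, 12.8 and 11.2% in WT1 to WT3, 11.1, 9.94 and 9.70% in HET1 to HET3, and 11.95 and 15.6% in KO1 and KO2. All WT shares of *Ccnd1* were above all HET shares, with a difference of HET minus WT of -4.62 percentage points (exact two-sided permutation test, p = 0.1, the smallest possible for 3 against 3). The gap between the groups was from 11.2% in WT3 to 11.1% in HET1, and the difference was -1.78 points without WT1 and -6.44 points without WT3. Between KO and the 6 others the mean shares differed by 1.20 points for *Ccnd1*, 0.368 for *Ccnd2* and -1.56 for *Ccnd3* (exact permutation p = 0.643, 0.786 and 0.643). Against the 3 female samples WT3, HET2 and HET3, both KO shares were above for *Ccnd1* and below for *Ccnd3*. The differences there were 3.47, 1.81 and -5.28 points (exact permutation p = 0.2, 0.4 and 0.2, where 0.2 is the smallest possible). *Cdk6* gave 0.99, 1.38 and 3.44% of the summed level of *Cdk4* and *Cdk6* in WT1 to WT3, 3.17, 3.24 and 3.22% in HET1 to HET3, and 1.51 and 2.63% in KO1 and KO2. The HET samples were nearly equal and the WT samples spread around the KO values, so the KO mean of 2.07% differed from the mean of the 6 others by -0.505 points (exact permutation p = 0.429), and from the 3 female ones by -1.23 points (exact permutation p = 0.2, the smallest possible). *Ccne1* gave 50.9 to 56.0% of the level of the E-type cyclins in WT1, WT2 and KO1 and 71.4 to 84.6% in the other 5 samples, a share chosen after its values were seen and not tested.

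**Figure D4:**
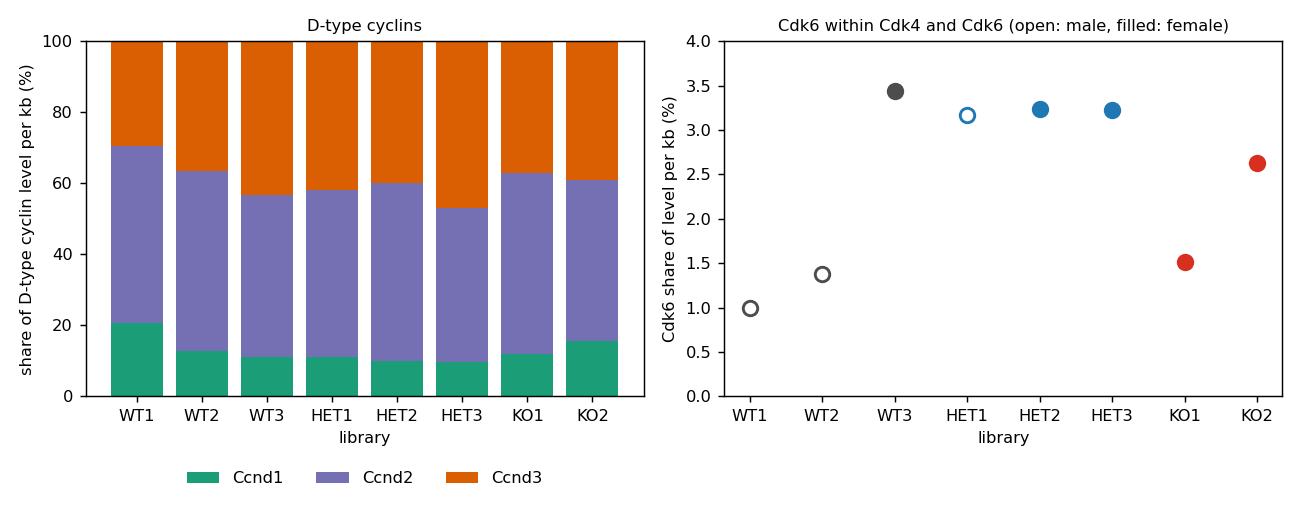
Left, share of *Ccnd1*, *Ccnd2* and *Ccnd3* in the summed level of the D-type cyclins per kilobase of exon (stacked bars, percent) in each library, and right, share of *Cdk6* in *Cdk4* and *Cdk6* (percent, open circles male, filled circles female). *Ccnd1* takes 9.70 to 20.5% of the bars, and the *Cdk6* share lies between 3.17 and 3.44% in WT3 and the HET samples and between 0.99 and 2.63% in the others.

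To ask whether 1 copy of the knockout allele was enough for a difference, HET was compared with WT with sex in the model. No gene of the 10 and none of the 19542 genes tested was called by edgeR (percent called 0), and DESeq2 called 52 genes, none of the 10. At an unadjusted p-value under 0.05, *Ccne1* and *Rb1* were higher in HET (2 of 10, against 1.91% of all genes) and none of the 10 was lower (against 1.95%). The log2 fold change was 0.85 ± 0.28 for *Ccne1* and 0.65 ± 0.21 for *Rb1* (adjusted p = 0.919 for both, edgeR). Both differences were larger in male than in female samples: the log2 difference of *Ccne1* was 1.41 between HET1 and the 2 male WT samples and 0.29 between the 2 female HET samples and WT3, and that of *Rb1* was 0.93 and 0.36. For *Cdk6* it was 1.69 in male and -0.06 in female samples, at a log2 fold change of 0.81 ± 0.37 (adjusted p = 0.919, edgeR). Without WT3 the fit sets HET1 alone against WT1 and WT2, which comes down to the male difference. The log2 fold change was then 1.68 for *Cdk6*, 1.40 for *Ccne1* and 0.93 for *Rb1*. With HET3 left out instead it was 0.96, 0.85 and 0.63. Without HET1 the log2 fold change of *Cdk6* was -0.064, which comes down to the female difference, with WT3 as the only female WT sample. No gene of the 10 had all HET samples above or below all WT samples, and the share of all genes that did was not counted. Of the 6 erythroid markers, 5 were higher in HET with an unadjusted p-value under 0.05 (median log2 fold change 1.59, edgeR), and HET1 had their highest sum, 8364 CPM. The part of these markers in the values of *Ccne1*, *Rb1* and *Cdk6* was not tested.

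Between male and female WT and HET samples, which also differ by the molecule label, the 10 genes were compared in the same way with genotype in the model. This comparison shares WT3, HET2 and HET3 with that of KO, so the values of both stand side by side only. None of the 10 passed in edgeR, where 2 of 19542 genes did (0.0102%), both outside these genes, and 0 with the replicate number as a block. At an unadjusted p-value under 0.05, *Ccnd1*, *Ccnd2*, *Cdk2* and *Rb1* were higher in male samples (4 of 10, against 11.1% of all genes) and *Ccne1* and *Cdk6* lower (2 of 10, against 12.6%). The log2 fold change of male over female was -1.16 ± 0.28 for *Ccne1* (adjusted p = 0.174, edgeR), -1.11 ± 0.37 for *Cdk6* (adjusted p = 0.18, edgeR), 0.94 ± 0.37 for *Ccnd1* (adjusted p = 0.203, edgeR) and 0.42 ± 0.14 for *Cdk2* (adjusted p = 0.181, edgeR). All 3 male samples lay above the 3 female ones for *Ccnd1*, *Ccnd2* and *Cdk2* (3 of 10, against 21.1% of all genes) and below for *Ccne1*, *Cdk4* and *Cdk6* (3 of 10, against 17.5%). The difference of *Cdk6* was -1.99 within WT and -0.24 within HET. DESeq2 called *Ccne1* (-1.19, adjusted p = 0.00867) and *Cdk6* (-1.14, adjusted p = 0.0353) lower in male samples, 2 of 10. Of all 19542 genes it called 495 lower and 1325 higher. Without WT3 the fit sets HET1 alone against HET2 and HET3, which comes down to the difference within HET. The log2 fold change was then -0.62 for *Ccne1*, -0.24 for *Cdk6*, 0.47 for *Ccnd1* and 0.28 for *Cdk2*. With HET3 left out instead it was -1.17, -1.27, 0.91 and 0.45. Cell type markers differed in the same comparison: all 4 hepatocyte genes were lower in male samples (median -4.65), 3 of them with an unadjusted p-value under 0.05 in edgeR and 3 called by DESeq2, and all 8 HSC markers were higher (median 2.56), 2 of them with such a p-value and 2 called by DESeq2. Their part in the values of *Ccne1* and *Cdk6* was not tested.

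The CDK inhibitors, the brakes of this machinery, were 3 higher and 2 lower in KO among the 5 of 7 tested, with a median log2 fold change of 1.14, and none passed in edgeR. *Cdkn1c*, which encodes p57, was at 80.5, 76.1 and 11.3 CPM in WT, 31.7, 25.4 and 6.52 in HET, and 81.0 and 55.5 in KO, again with WT1 and WT2 beside KO. Its log2 fold change was 2.24 ± 0.57 (adjusted p = 0.148, edgeR) and 1.39 ± 0.60 (adjusted p = 0.671, edgeR) without WT3 and HET3. *Cdkn2d*, an INK4 inhibitor (p19), gave 1.28 ± 0.33 (adjusted p = 0.148, edgeR) and *Cdkn1b*, which encodes p27, 1.14 ± 0.48 (adjusted p = 0.19, edgeR). With DESeq2 and apeglm 2 of the 5, *Cdkn1c* and *Cdkn2d*, were called higher, where 6.5% of all genes were. *Cdkn1a* (p21) was at -0.05 ± 0.56 and *Cdkn2c* at -0.78 ± 0.71 (adjusted p = 0.968 and 0.505, edgeR). *Cdkn2a* had no read in any sample, and *Cdkn2b* had 4 reads in HET1, 2 in HET3 and none elsewhere. Without WT3 and HET3 the 5 genes had a median of 0.44 and none an unadjusted p-value under 0.05. Between male and female WT and HET samples, 4 of the 5 were higher and 1 lower in male ones. The median there was 1.44, and 3 had an unadjusted p-value under 0.05, all higher, where 11.1% of all genes were (edgeR).

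Upstream and downstream of the 10 genes, edgeR called none of the genes listed, and the medians of the lists ran from -0.46 to 0.58. Of 8 inducers of D-type cyclins 6 were higher and 2 lower in KO (median 0.58). An unadjusted p-value under 0.05 was found for 4, all higher, where 15.7% of all genes were higher at that p-value. One of these is *Kit*, which is also among the HSC markers. Without WT3 and HET3, 5 were higher and 3 lower (median 0.26), and 1 had such a p-value. *Mycn* was at 276.5, 256.6 and 17.6 CPM in WT, 66.9, 38.0 and 2.31 in HET, and 259.4 and 164.5 in KO (log2 fold change 3.46 ± 0.94, adjusted p = 0.148, edgeR), and DESeq2 with apeglm called it. Without WT3 and HET3 it was 2.45 ± 0.87 (adjusted p = 0.671, edgeR). *Myc* ran the other way, at 266.7, 164.2 and 1414 CPM in WT, 880.8, 756.2 and 1484 in HET, and 236.1 and 839.5 in KO (-1.18 ± 0.77, adjusted p = 0.351, edgeR). *Myc* was lowest and *Mycn* highest in WT1, WT2 and KO1. All 16 S phase targets of E2F were lower in KO in the fit with sex, with a median of -0.46 against 0.13 for all genes. That fit sets KO against WT3, HET2 and HET3. In mean CPM, without the sex term, most but not all of the 16 were lower in KO than in WT and HET together. At an unadjusted p-value under 0.05, 4 of 16 were lower, where 9.48% of all genes were. These 4 were led by *Rrm2* (-1.06 ± 0.44), *Ccna2* (-0.90 ± 0.34) and *Pcna* (-0.85 ± 0.29), with adjusted p-values of 0.184, 0.165 and 0.156 (edgeR). Without WT3 and HET3, 15 of 16 were lower, with a median of -0.37 and 1 unadjusted p-value under 0.05. In WT and HET alone, all 16 were also lower in male than in female samples (median -0.41, 4 with an unadjusted p-value under 0.05, where 12.6% of all genes were lower, edgeR). That comparison shares WT3, HET2 and HET3 with that of KO.

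Of the 10 E2F and DP factors 3 were higher and 7 lower in KO (median -0.04), and *E2f4*, the partner of p130 in resting cells, was the only one with an unadjusted p-value under 0.05 (-1.18 ± 0.41, adjusted p = 0.157, edgeR). Without WT3 and HET3, 1 was higher and 9 lower (median -0.14), none with such a p-value, and *E2f4* was at -1.02 ± 0.58 (adjusted p = 0.671, edgeR). *Tfdp1* was at -0.53 ± 0.24 and *E2f7* at 0.48 ± 0.32 (adjusted p = 0.213 and 0.371, edgeR). Of 7 genes for the third pocket protein and its MuvB partners 2 were higher and 5 lower (median -0.08), the farthest from 0 being *Lin54* and *Mybl2* at -0.31 and *Rbbp4* at -0.11. Of 8 CDK activators 7 were lower (median -0.45). An unadjusted p-value under 0.05 was found for 3, all lower, where 9.48% of all genes were lower at that p-value. Among these 3 was *Cdk7*, the CDK-activating kinase (-0.95 ± 0.28, adjusted p = 0.151, edgeR). *Cks2* was at -0.85 ± 0.44 and *Cdc25b* at 0.68 ± 0.32 (adjusted p = 0.252 and 0.223, edgeR). Without WT3 and HET3 the activators had a median of -0.34 and none an unadjusted p-value under 0.05. Between male and female WT and HET samples, 7 of the 8 were also lower in male ones (median -0.52, 5 with such a p-value, edgeR). At that p-value 12.6% of all genes were lower in male samples. Of 9 genes of cyclin D and E turnover 3 were higher and 6 lower (median -0.05), with *Fbxo31* at -0.74 ± 0.24, *Fbxo4* at 0.51 ± 0.27 and *Cul1* at -0.44 ± 0.19 (adjusted p = 0.154, 0.258 and 0.191, edgeR). *Fbxo31* and *Cul1* were the 2 with an unadjusted p-value under 0.05, both lower, where 9.48% of all genes were. Without WT3 and HET3 there was none, in this list (median -0.02) or among the MuvB genes (median -0.08).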

How the data were processed

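Bulk RNA-seq of 8 LT-HSC samples (3 WT, 3 HET, 2 KO) was used. Per the methods and processing notes, the authors trimmed reads with Trim Galore 0.6.6, aligned them to GRCm38 with STAR 2.7.8, kept unique reads and deposited raw counts per Ensembl gene, without normalization. They also deposited a log2 table, obtained by variance stabilization in DESeq2 1.38.3 and corrected for sex, in which only the order of the samples was read here. Unique mapping lowers the counts of genes that have close copies, and the strand setting is not given in the sources used here.

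Symbols and exon lengths (union of exons) came from GENCODE M21, in which 55227 of 55487 IDs were found. Genes with at least 10 reads in all were normalized by TMM and fitted in edgeR 4.0.16 (quasi-likelihood, legacy form) in R 4.3.3, with sex as covariate (genotype for the male against female comparison), and Benjamini-Hochberg adjustment over all genes. The alternative was DESeq2 1.42.0 with apeglm 1.24.0. A call needed an adjusted p-value below 0.05 with a log2 change of more than 1 in size. Exact permutation (scipy 1.17.1, two-sided) served for single genes, on log2 CPM (prior count 2), and for shares, in 30 and 12 tests, none of which could reach 0.05. The depth gives 0.125 to 0.178 CPM for 3 reads, for counting error only. The edgeR fit was also run on simulated data, and the outcome is not given here. As a check of pairing, deviations of WT and HET samples of the same number from their group means correlated at 0.654, 0.488 and 0.77. WT2 correlated better with HET1 (0.691) than with HET2, and no label ties the numbers to a litter. The check therefore cannot settle whether the numbers pair WT with HET. The number was a block in an alternative fit only, not in the main fits or the permutation tests. The 2 KO deviations mirror each other, so KO could not be checked.

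The 10 genes, the lists and the markers were chosen with earlier results of these data known. Named genes are the 10, *Nfkbia*, all CDK inhibitors, up to 3 genes of each further list with a mean of at least 5 CPM and the largest change in KO, and the 5 genes most like *Cdk6*, and 1 gene of this rule is not reported here. *Klf1* and single markers were named after their values were seen. Alternatives covered normalization, filters, covariates, the reference group, the replicate number as a block and each sample left out. The fit without WT3 and HET3 was added after the data were seen, and has HET2 as its only female reference sample.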

Additional observations from a re-analysis of the deposited data

Results flagged for a closer look

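Among the 6 WT and HET samples, 3 of 14 values tested had a sample far from the rest. The nominal rate of such flags is about 1 in 20 for independent values from a uniform group. These samples mix WT and HET and male and female, so that rate need not hold here and was not measured. Of the 3, 2 rest on the same *Ccnd1* value. *Ccnd1* in WT1, at 84.4 CPM, was separated from the next sample, at 43.5 CPM, by 0.673 of the whole range. The share of *Ccnd1* in the D-type cyclins in WT1, 20.5% with the next sample at 12.8%, had a gap of 0.709 of the range. *Rb1* in HET1, at 60.0 CPM with the next sample at 38.4 CPM, had a gap of 0.655 of the range.

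The difference between HET and WT ran in opposite directions in male and female samples for 2 of the 10 genes, with every sample on its side. For *Cdk6* the log2 difference was 1.69 in male and -0.06 in female samples, 1.75 apart. For *Ccnd2* it was -0.22 in male and 0.40 in female samples, -0.62 apart (-0.615). These differences between the sexes were not tested, since each sex holds a single sample of 1 genotype. The share of all genes with such opposite directions was not counted, so 2 of 10 has no background to stand against. For *Cdk6* the female samples were close, at 220.2 CPM in WT3, 205.2 in HET2 and 218.0 in HET3. WT3 and HET3 are also the libraries that went against the label LT-HSC.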

How the results depend on the processing

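The count of genes called for KO against WT and HET, 0 with edgeR, was 1825 with DESeq2 unshrunken, 1463 with apeglm, 1 with the edgeR version 4 form, 1106 with no filter beyond 1 read and 706 with WT alone as the reference, and it was 0 to 703 with 1 sample left out, the highest without HET2, and 8 without HET1. For HET against WT it was 0, 52 with DESeq2 and 0 to 76 with 1 sample left out (76 without HET2). For male against female it was 2, 1820 with DESeq2, 4 with no genotype covariate and 0 to 2914 with 1 sample left out (0 without WT1 or WT2, 1404 without HET1, 2914 without HET2). Of the 10 genes, *Ccne1* in KO passed with DESeq2, unshrunken (-1.48) and with apeglm (-1.02), and *Ccne1* and *Cdk6* passed in male against female with DESeq2 and without HET1 or HET2 (-1.77 and -1.34 for *Ccne1*, -2.04 and -1.30 for *Cdk6*), and were at -0.62 and -0.24 without WT3. Signs turned for *Ccne2* in KO with WT alone (0.076) or library size only (0.078), and for *Ccnd2* in HET against WT with no sex covariate (-0.16) or with samples left out (-0.22 to 0.42), for *Ccnd1* in HET (-0.75 to 0.17) and for *Cdk6* in HET (-0.064 to 1.68, the lowest without HET1). With the number as a replicate block, 0 genes were called in each of the 3 comparisons, and the signs of *Ccnd2* in KO (-0.049) and HET (-0.12) and of *Ccnd1* (-0.12) and *Ccnd2* (-0.011) in male against female turned. The other log2 fold changes of the 10 genes kept their sign and their side of the threshold under the alternatives run, while their size moved, as for *Ccnd1* and *Cdk2* in KO with no sex covariate (0.17 and 0.46). Differences of shares, in percentage points, turned for *Ccnd2* in KO with 1 sample left out (-2.32 to 3.06) and without WT3 and HET3 (-1.34), for *Ccnd3* in KO without WT3 and HET3 (1.19), for *Ccnd1* and *Cdk6* in KO with 1 sample left out (-0.61 to 3.00 and -1.07 to 0.055), for *Ccnd2* in HET in female samples (1.46) and with 1 sample left out (-3.41 to 0.049), and for *Ccnd3* (-0.056) and *Cdk6* (-0.21) in HET in female samples. The cause was not tested. With sex in the model, the fit with WT alone as the reference sets KO against WT3, the only female WT sample. Without WT3, HET against WT sets HET1 alone against WT1 and WT2, and male against female sets HET1 alone against HET2 and HET3. Without HET1, HET against WT sets HET2 and HET3 against WT3 alone. Each of the 10 genes had at least 374 reads in every sample.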
